A study of Homo sapiens with 6 samples.

Results

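The cells were SNU638, an established line from a human gastric carcinoma. Gene expression was read on 6 Illumina bead arrays, from 3 samples of a stable line overexpressing LAP2β and from 3 mock samples, cells with the empty vector. All cells were grown in the same serum-supplemented medium. The study mentions a numbered clone among its transfected cells but does not say whether the arrayed line was that clone or any single clone, and neither its methods nor the sample labels name separate cultures behind the samples of a group. The p-values therefore rest on the spread among these 6 samples alone, and part of it may be technical.

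The genes described here are 9 genes of the LINC complex and of the torsin system, namely SUN1, SUN2, SYNE1, SYNE2, SYNE3, TOR1A, TOR1B, TOR1AIP1 and TOR1AIP2. They were chosen by name, as all probes whose annotation gives 1 of these symbols, current or earlier. This gave 17 of the 29377 probes, and 9 of 19432 genes. LAP2β is a protein of the inner nuclear membrane that ties the lamina to chromatin, and these genes encode other proteins of the nuclear envelope and their helpers. SUN1 lies on chromosome 7, SUN2 on 22, SYNE1 on 6, and SYNE2 and SYNE3 on 14.

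The LINC complex bridges the nuclear envelope. SUN proteins span the inner nuclear membrane, face the lamina on one side and, in the space between the membranes, hold the KASH domains of nesprins, which reach out to actin, microtubule motors and intermediate filaments and so let the cytoskeleton move and anchor the nucleus. Torsins are ATPases of the AAA+ family in the endoplasmic reticulum and the perinuclear space, and they depend on the membrane proteins LAP1, encoded by TOR1AIP1, and LULL1, encoded by TOR1AIP2, for their activity. TOR1A is the gene mutated in early-onset DYT1 dystonia.

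Compared to mock cells, 0 of the 7 genes that could be tested passed the test in the LAP2β line, in either direction. Signals before normalization were quantile normalized between the 6 arrays and put on the log2 scale, and the 13323 probes above background on at least 3 arrays (a detection p-value below 0.01) were tested with limma at an adjusted p under 0.05 (Benjamini-Hochberg). Of the 17 probes, 9 were tested, and these cover 7 of the 9 genes. All 9 lay above background on all 6 arrays. SYNE1 and SYNE3 had no probe that could be tested. Over all tested probes, 1.65% passed (146 higher and 74 lower), and over all tested genes 1.79%. Among the 9 probes, 0 had an unadjusted p under 0.05 from limma, against 13.4% of all tested probes, and 0 passed the methods' t-test, at their threshold or after adjustment. The adjusted p ran from 0.438 to 0.999. The log2 fold changes of the 9 probes ran from -0.22 for SUN1 to 0.0050 for TOR1AIP1, and their 95% intervals together spanned 0.720-fold to 1.16-fold. A p that misses the threshold does not show that the levels were equal. In RNA from whole cultures, fewer cells expressing a gene and less RNA per cell cannot be told apart.

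**Figure D1:**
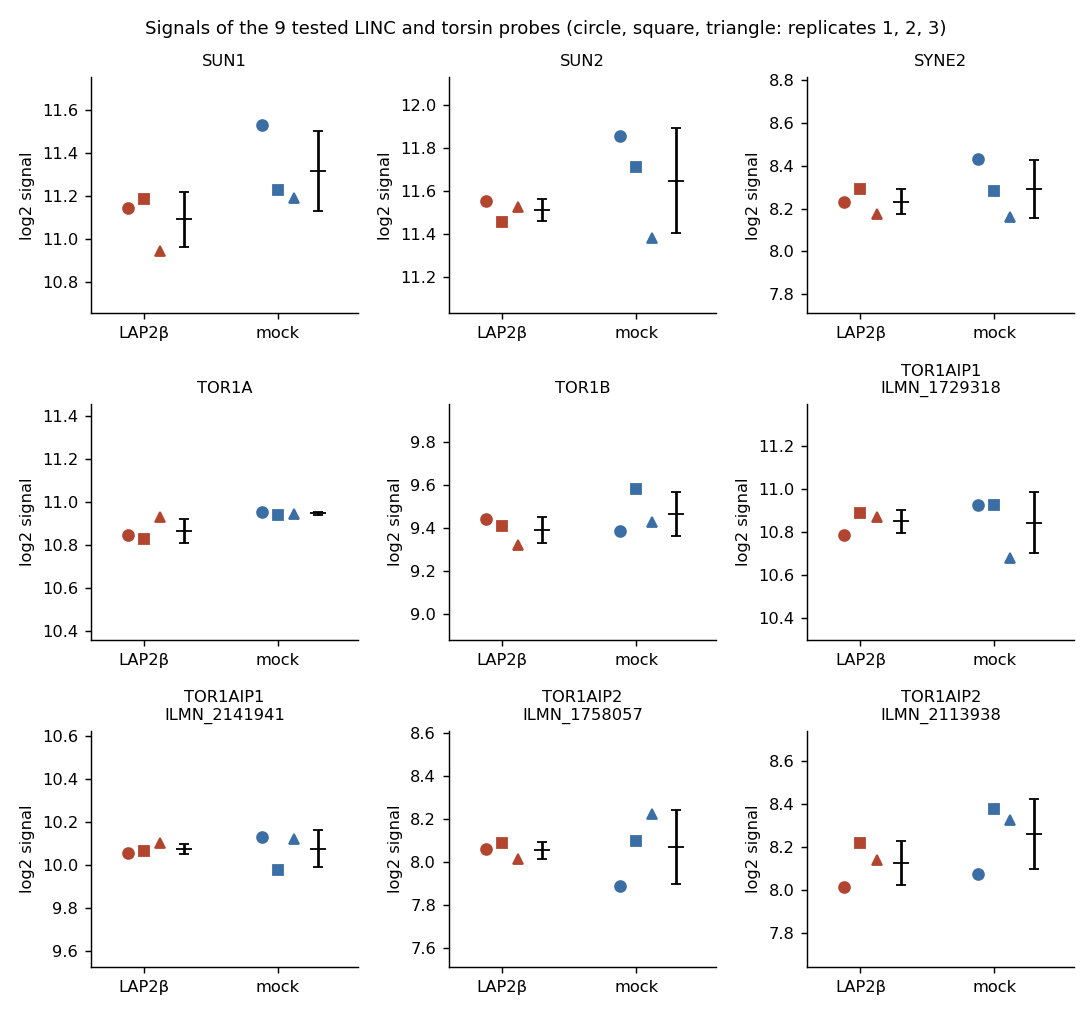
Log2 signals after quantile normalization (y axis, each panel spanning the same height) of the 9 tested probes on 3 LAP2β and 3 mock arrays, with bars for the mean ± SD of each group. The groups overlap in 7 panels, and in the panels of SUN1 and TOR1A all LAP2β arrays lie below all mock arrays. Of all tested probes, 19% have groups that do not overlap, 10.2% with the LAP2β arrays lower.

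Sequence around the start sites was given by RefSeq (GRCh38.p14) for 6 of the 9 genes, with 14 windows of 300 bases, 250 before and 50 after a start. SUN1, TOR1A and TOR1B had no entry. Shown first are SUN2, above background on all 6 arrays, and SYNE3, above background on none, each at its outermost start. Capitals mark GC boxes (GGGCGG or, on the other strand, CCGCCC, overlapping matches counted separately) and CCAAT boxes (CCAAT or ATTGG). No CCAAT box overlapped a GC box in these windows.
SUN2, chr22:38755949-38756248, minus strand: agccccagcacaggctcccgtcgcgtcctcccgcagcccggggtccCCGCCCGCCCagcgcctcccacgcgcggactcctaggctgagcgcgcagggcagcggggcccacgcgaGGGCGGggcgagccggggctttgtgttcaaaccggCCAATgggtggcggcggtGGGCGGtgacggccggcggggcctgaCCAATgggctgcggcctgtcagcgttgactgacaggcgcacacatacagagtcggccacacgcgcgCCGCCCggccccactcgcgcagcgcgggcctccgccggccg
SYNE3, chr14:95516601-95516900, minus strand: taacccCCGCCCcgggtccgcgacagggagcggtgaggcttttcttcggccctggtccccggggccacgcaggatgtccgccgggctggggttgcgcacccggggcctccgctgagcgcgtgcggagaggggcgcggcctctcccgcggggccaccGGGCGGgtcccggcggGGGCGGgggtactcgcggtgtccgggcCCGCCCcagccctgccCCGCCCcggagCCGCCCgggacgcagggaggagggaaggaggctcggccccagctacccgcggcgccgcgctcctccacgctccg

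The SUN2 window held 5 GC boxes and 2 CCAAT boxes at a GC content of 77%, and the SYNE3 window held 6 GC boxes and 0 CCAAT boxes at 80.3%. Of all 35116 windows in the RefSeq set, 45% held a GC box and 34.6% a CCAAT box, and the median GC content was 58.7%. Of the 14 windows of the 6 genes, 8 held a GC box and 3 a CCAAT box.

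TOR1AIP1 and TOR1AIP2 are neighbours on chromosome 1 with no other gene between them, and they run in opposite directions away from the gap that separates them. TOR1A and TOR1B are likewise next to each other on chromosome 9. The start windows of the first pair are shown because both genes were read on all arrays and encode the partners of torsin.
TOR1AIP1, chr1:179882035-179882334, plus strand: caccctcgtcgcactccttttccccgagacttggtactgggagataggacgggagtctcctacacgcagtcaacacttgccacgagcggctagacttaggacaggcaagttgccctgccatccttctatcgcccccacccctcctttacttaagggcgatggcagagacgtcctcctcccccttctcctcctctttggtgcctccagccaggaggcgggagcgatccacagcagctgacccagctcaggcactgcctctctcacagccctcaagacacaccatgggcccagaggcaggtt
TOR1AIP2, chr1:179877754-179878053, minus strand: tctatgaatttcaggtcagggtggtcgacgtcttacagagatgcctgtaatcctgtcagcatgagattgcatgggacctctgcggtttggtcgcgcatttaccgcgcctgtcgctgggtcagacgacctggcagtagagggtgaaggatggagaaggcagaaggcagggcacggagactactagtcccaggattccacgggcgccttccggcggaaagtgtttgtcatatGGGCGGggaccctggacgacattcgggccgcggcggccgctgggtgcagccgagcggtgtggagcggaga

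Both windows had a GC content of 60.7%. The TOR1AIP2 window held 1 GC box and 24 CpG dinucleotides, and the TOR1AIP1 window 0 GC boxes and 12 CpG dinucleotides, against a median of 14 CpG over all windows. Neither held a CCAAT box. These matches are descriptions of the letters and not of binding.

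SUN1, which spans the inner nuclear membrane and binds A-type lamins, had the largest difference of the 9 probes. Its log2 signal was 11.14, 11.18 and 10.94 in LAP2β replicates 1 to 3 and 11.53, 11.23 and 11.19 in mock replicates 1 to 3. All LAP2β arrays lay below all mock arrays, although LAP2β replicate 2 and mock replicate 3 were almost level, and mock replicate 1 was the highest. The means were 11.09 ± 0.13 in the LAP2β line and 11.31 ± 0.19 in mock cells (SD, n = 3 each), a log2 fold change of -0.22 (standard error 0.11, 95% interval -0.47 to 0.027, limma adjusted p = 0.438). A two-sided exact permutation test gave p = 0.1 for SUN1, the smallest that this design allows. Before normalization the linear signals of SUN1 were 2074, 2153 and 1923 in LAP2β replicates 1 to 3 and 2980, 2761 and 2367 in mock replicates 1 to 3. Without mock replicate 1 the log2 fold change was -0.12, and without LAP2β replicate 3 it was -0.15. With median scaling it was -0.38 (limma adjusted p = 0.0704) and with no normalization between arrays -0.39 (limma adjusted p = 0.0695). In these scalings the median of all tested probes moved too, from -0.0082 to -0.13 and -0.14. The interval reaches down to 0.720-fold, so a fall of that size in SUN1 is not left out by these arrays.

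SUN2, the other widely expressed SUN protein, had log2 signals of 11.56, 11.46 and 11.52 on the LAP2β arrays and 11.86, 11.71 and 11.38 on the mock arrays. Mock replicate 3 lay below all LAP2β arrays and the other mock arrays above them, so the groups overlapped. The log2 fold change was -0.14 (standard error 0.12, 95% interval -0.40 to 0.12, limma adjusted p = 0.670). Without mock replicate 1 it was -0.032, and without mock replicate 3 it was -0.27. The spread of SUN2 was 0.051 in the LAP2β line and 0.24 in mock cells (SD, n = 3 each), the widest mock spread of the 9 probes.

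The nesprins carry the KASH domain that SUN proteins hold. SYNE2, the gene of nesprin-2, had 1 of its 4 probes above background on all arrays. This probe read 8.23, 8.29 and 8.17 in LAP2β replicates 1 to 3 and 8.43, 8.28 and 8.16 in mock replicates 1 to 3, and the groups overlapped. The log2 fold change was -0.059 (standard error 0.097, 95% interval -0.27 to 0.15, limma adjusted p = 0.845). Mock replicate 1 was again the highest array, as for SUN1 and SUN2. Without it the log2 fold change of SYNE2 was 0.011.

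The remaining SYNE2 probes lay at or below the background. The second probe annotated to the same transcript (ILMN_1754579, NM_015180) read 7.88, 7.61 and 7.48 on the LAP2β arrays and 7.68, 7.67 and 7.70 on the mock arrays, and was above background on LAP2β replicate 1 only. The probe of NM_182910 (ILMN_1745668) ran from 7.27 to 7.33 on the LAP2β arrays and from 6.96 to 7.02 on the mock arrays. All 3 LAP2β signals exceeded the mock signals there, but none of the 6 was above background, so no fold is given. With no filter on dim probes its adjusted p was 0.179 from limma. The probe of NM_182913 (ILMN_1677009) ran from 6.70 to 6.83 on the LAP2β arrays and from 6.67 to 6.85 on the mock arrays, also with none above background.

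SYNE1, the gene of nesprin-1, had 4 probes, and 3 of them were above background on no array. The probe annotated to NM_182961 (ILMN_1785427) read 7.58, 7.72 and 7.90 on the LAP2β arrays and 7.66, 7.68 and 7.68 on the mock arrays, and was above background on LAP2β replicate 3 only. The probe of NM_033071 (ILMN_1666785) read 6.99, 7.37 and 7.32 on the LAP2β arrays and 6.97, 7.04 and 6.98 on the mock arrays. LAP2β replicates 2 and 3 were the highest there, but again no array was above background. The other SYNE1 probes are annotated to accessions that the reference gene table does not list under SYNE1, and they lay between 6.40 and 6.95. With a looser detection limit (0.05 in place of 0.01, again on at least 3 arrays), the NM_182961 probe of SYNE1 and the second SYNE2 probe could be tested, with log2 fold changes of 0.056 (limma adjusted p = 0.867) and -0.026 (limma adjusted p = 0.952).

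SYNE3, the gene of nesprin-3, which links to intermediate filaments through plectin, had 1 probe. It read 7.45, 7.32 and 7.29 on the LAP2β arrays and 7.31, 7.27 and 7.20 on the mock arrays, overlapping and with none above background. For SYNE1 and SYNE3 these arrays therefore give no fold change, and a signal at background does not show that the transcripts were absent.

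**Figure D2:**
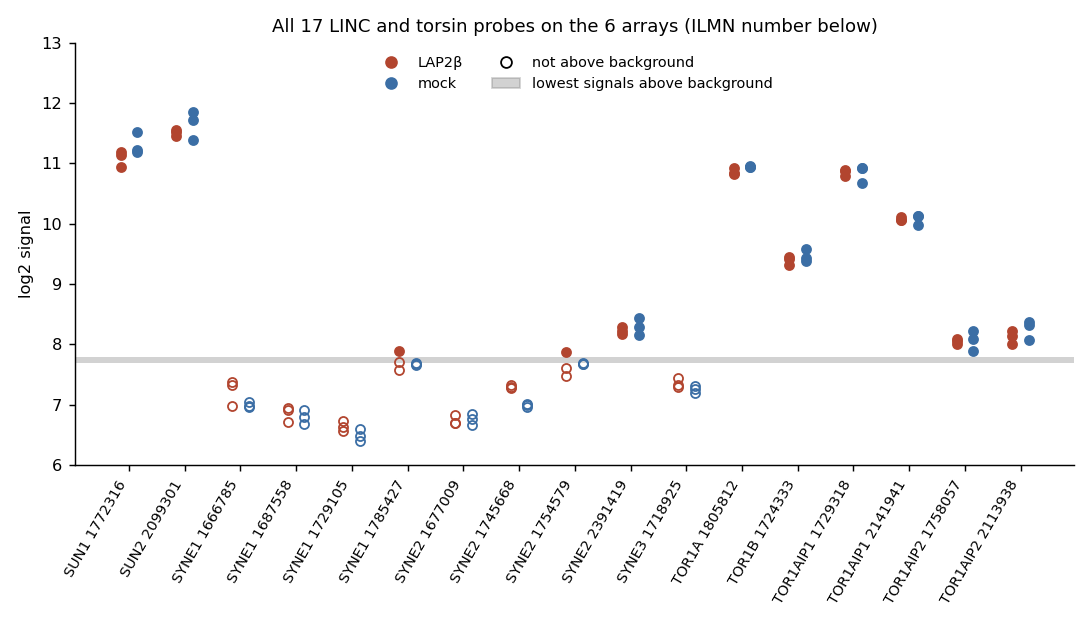
Log2 signals (y axis) of all 17 probes of the 9 genes (x axis, with the probe number) on LAP2β and mock arrays, filled where above background. The grey band spans the lowest signals above background on the 6 arrays (7.70 to 7.79), and the probes of SYNE1 and SYNE3 and 3 of the 4 probes of SYNE2 lie mostly under or in it.

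TOR1A, the gene of torsinA, read 10.84, 10.83 and 10.93 in LAP2β replicates 1 to 3 and 10.95, 10.94 and 10.95 in mock replicates 1 to 3. All LAP2β arrays lay below all mock arrays, by a narrow margin, and the mock arrays were almost identical. The log2 fold change was -0.079 (standard error 0.084, 95% interval -0.26 to 0.11, limma adjusted p = 0.736, and p = 0.1 in the exact permutation test). The groups did not overlap for SUN1 and TOR1A, 2 of the 9 probes. Over all tested probes the groups did not overlap for 19%, and for 10.2% the LAP2β arrays were the lower ones.

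TOR1B, the gene of the closely related torsinB, read 9.44, 9.41 and 9.32 on the LAP2β arrays and 9.39, 9.58 and 9.43 on the mock arrays. The groups overlapped, with mock replicate 2 the highest. Its log2 fold change was -0.075 (standard error 0.092, 95% interval -0.28 to 0.13, limma adjusted p = 0.782). Without mock replicate 2 it was -0.016, the smallest value with 1 array left out, and the largest was -0.11, without mock replicate 1.

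TOR1AIP1, which encodes LAP1, had 2 probes of the same transcript. The brighter probe (ILMN_1729318) read 10.79, 10.89 and 10.87 on the LAP2β arrays and 10.93, 10.93 and 10.68 on the mock arrays. Its log2 fold change was 0.0050 (standard error 0.097, 95% interval -0.21 to 0.22, limma adjusted p = 0.991). The other probe (ILMN_2141941) read 10.06, 10.07 and 10.10 on the LAP2β arrays and 10.13, 9.98 and 10.12 on the mock arrays, with a log2 fold change of -0.00065 (standard error 0.087, 95% interval -0.19 to 0.19, limma adjusted p = 0.999). Both probes thus gave differences near 0 after quantile normalization. Their intervals there leave room for a change of 1.16-fold at most in either direction. With median scaling both log2 fold changes were -0.15, and with no normalization between arrays both were -0.16. The median of all tested probes was -0.13 and -0.14 there.

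TOR1AIP2, which encodes LULL1, had 2 tested probes. The probe ILMN_2113938 read 8.01, 8.22 and 8.14 on the LAP2β arrays and 8.07, 8.38 and 8.32 on the mock arrays, and each LAP2β array lay below the mock array of its own number. Its log2 fold change was -0.13 (standard error 0.11, 95% interval -0.37 to 0.098, limma adjusted p = 0.632). With 1 array left out it ran from -0.23, without mock replicate 1, to -0.074, without mock replicate 2. The probe ILMN_1758057 read 8.06, 8.09 and 8.01 on the LAP2β arrays and 7.89, 8.10 and 8.23 on the mock arrays, with a log2 fold change of -0.016 (standard error 0.10, 95% interval -0.24 to 0.21, limma adjusted p = 0.969). For both probes the groups overlapped.

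**Figure D3:**
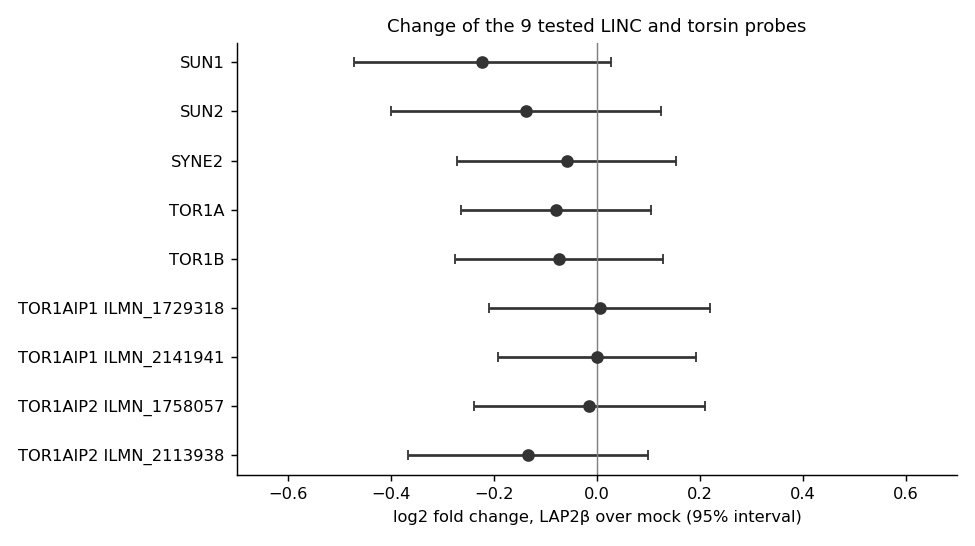
Log2 fold changes of LAP2β over mock (x axis) with 95% intervals from limma for the 9 tested probes (y axis). All 9 intervals include 0, from SUN1 at -0.22 to the brighter TOR1AIP1 probe at 0.0050.

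Of the 9 probes, 8 had a log2 fold change below 0, as did 52.5% of all tested probes. Their median was -0.075, against -0.0082 over all tested probes, and the median size regardless of sign was 0.075, against 0.097. With median scaling or no normalization between arrays, all 9 were below 0, with medians of -0.20 and -0.22, while the median of all tested probes moved to -0.13 and -0.14. Below that median lay 7 of the 9 after quantile normalization and 8 of the 9 in these other scalings. Of all probes past the threshold, 66.4% were higher in the LAP2β line after quantile normalization, 21.2% with median scaling and 20.9% with no normalization between arrays. The median spread within a group was 0.11 for the 9 probes and 0.12 for all tested probes. It was smaller in the LAP2β line than in mock cells for 8 of the 9 probes, the exception being TOR1A, and for 54.3% of all tested probes.

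**Figure D4:**
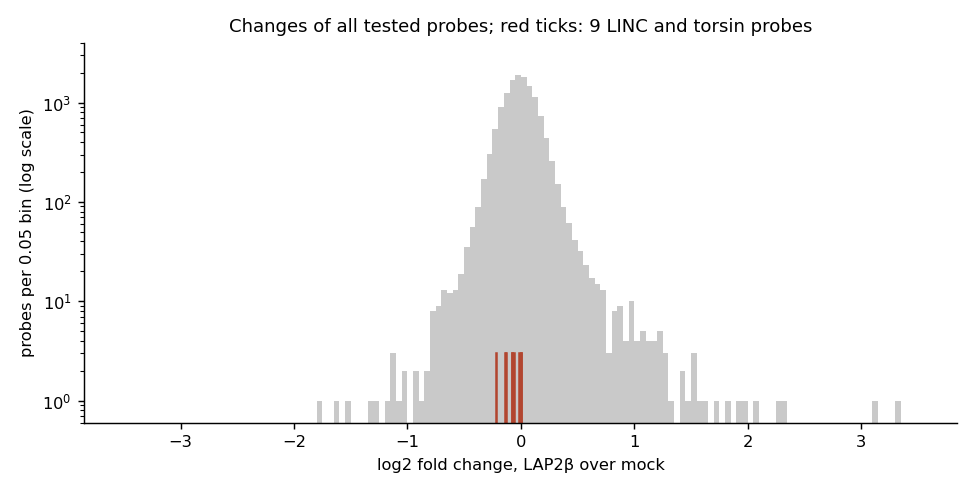
Log2 fold changes of LAP2β over mock (x axis) of the 13323 tested probes, as the number of probes per bin (y axis, log scale), with red ticks for the 9 probes of LINC and torsin genes. The ticks lie between -0.22 and 0.0050, with 8 of the 9 below 0. By size regardless of sign, SUN1 ranked 1994 of the 13323 probes.

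Deviations from the group means had correlations of 0.228 to 0.544 between same-numbered LAP2β and mock arrays. Between arrays of other numbers the correlations reached 0.158. The labels do not say what equal numbers share, so pairing them is an assumption. With these numbers as pairs in the fit 0 of the 9 probes passed as well, against 6.16% of all tested probes. SUN1 alone had an unadjusted p under 0.05 in the paired fit, where 21.2% of all tested probes did, and its adjusted p there was 0.166 from limma. The genes whose 6 signals ran most like those of SUN1, once each probe's own mean was subtracted, were MYO9A, an unconventional myosin, MGST1, a microsomal glutathione transferase, and SLC39A6, a zinc transporter. Their mean absolute differences from SUN1 over the 6 arrays were 0.028, 0.031 and 0.032 on the log2 scale.

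Other genes of the same structures were read from lists. Of 6 other LINC family genes, 2 were tested and 0 passed. SPAG4, a SUN domain gene, had a log2 fold change of 0.062 (limma adjusted p = 0.834) and SYNE4, the gene of nesprin-4, which binds kinesin-1 in epithelia, one of -0.029 (limma adjusted p = 0.950). SUN3, SUN5, KASH5 and IRAG2 could not be tested. SYNE4 was above background on 4 arrays and SPAG4 on 3, so both were near the detection limit. Of the 3 other torsins, all were tested and 0 passed. TOR4A had a log2 fold change of 0.10 (limma adjusted p = 0.757) and TOR3A one of 0.050 (limma adjusted p = 0.883), and in both of the scalings without quantile normalization these were below 0.

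Of 11 partners in the lamina and the inner nuclear membrane, 10 were tested and 0 passed. Read from the brightest tested probe of each gene, 1 of these 10 had an unadjusted p under 0.05 from limma. Of all 9905 tested genes, 1364 did. The 1 partner was LBR, the lamin B receptor. It read 8.87, 9.36 and 9.13 in LAP2β replicates 1 to 3 and 9.22, 9.55 and 9.55 in mock replicates 1 to 3. The groups overlapped, but each LAP2β array lay below the mock array of its own number. The log2 fold change was -0.33 (limma adjusted p = 0.320, standard error 0.14). With 1 array left out it ran from -0.45, without LAP2β replicate 2, to -0.20, without LAP2β replicate 1 (limma adjusted p = 0.606). Only with the same-numbered arrays taken as pairs did LBR pass, lower in the LAP2β line (limma adjusted p = 0.0381). In that fit 1 of these 10 genes passed, against 6.43% of all tested genes. The other tested LBR probe had a log2 fold change of -0.073 (limma adjusted p = 0.834, and 0.669 with the pairs). The brightest LBR probe was at -0.45 with median scaling and -0.47 with no normalization between arrays (limma adjusted p = 0.0790 and 0.0753). In these scalings the median of all tested probes was -0.13 and -0.14. LMNA, the gene of lamins A and C, which SUN proteins bind, had a log2 fold change of 0.19 (limma adjusted p = 0.422), against 0.024 with median scaling and 0.0089 with no normalization between arrays. LEMD3, the gene of MAN1, was picked out after its values were seen. Its 2 tested probes had log2 fold changes of -0.22 (limma adjusted p = 0.430) and -0.28 (limma adjusted p = 0.252). At the second all LAP2β arrays lay below all mock arrays, as for 10.2% of all tested probes. That second probe, the dimmer of the pair, had an unadjusted p of 0.0206 from limma, smaller than that of LBR. The groups of EMD and TMEM43 did not overlap either, with the LAP2β arrays higher (log2 fold changes 0.12 and 0.17). The brighter LEMD3 probe was at -0.38 with median scaling and -0.40 with no normalization between arrays (limma adjusted p = 0.0878 and 0.0921). TMPO, the gene of LAP2 itself, was read by a probe of another transcript than β, at 9.76 ± 0.12 in the LAP2β line and 9.79 ± 0.21 in mock cells (SD, n = 3 each), and the β transcript had 1 probe, with none of the 6 arrays above background.

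Of 17 cytoskeletal partners of nesprins, 16 had a probe, 15 were tested and 0 passed. An unadjusted p under 0.05 from limma was found for 0 of the 15, against 1364 of all 9905 tested genes. PAFAH1B1, the gene of the dynein regulator LIS1, had a log2 fold change of 0.18 (limma adjusted p = 0.399). It read 11.51, 11.51 and 11.41 on the LAP2β arrays and 11.34, 11.26 and 11.29 on the mock arrays. Its groups did not overlap, nor did those of KLC2 (log2 fold change -0.12), as for 19% of all tested probes. The log2 fold change of PAFAH1B1 was 0.021 with median scaling and 0.0056 with no normalization between arrays. BICD2, a dynein adaptor, had a log2 fold change of -0.24 (limma adjusted p = 0.447), and its groups overlapped. It was -0.39 with median scaling and -0.40 with no normalization between arrays (limma adjusted p = 0.0897 and 0.0813). In these scalings the median of all tested probes was -0.13 and -0.14.

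**Figure D5:**
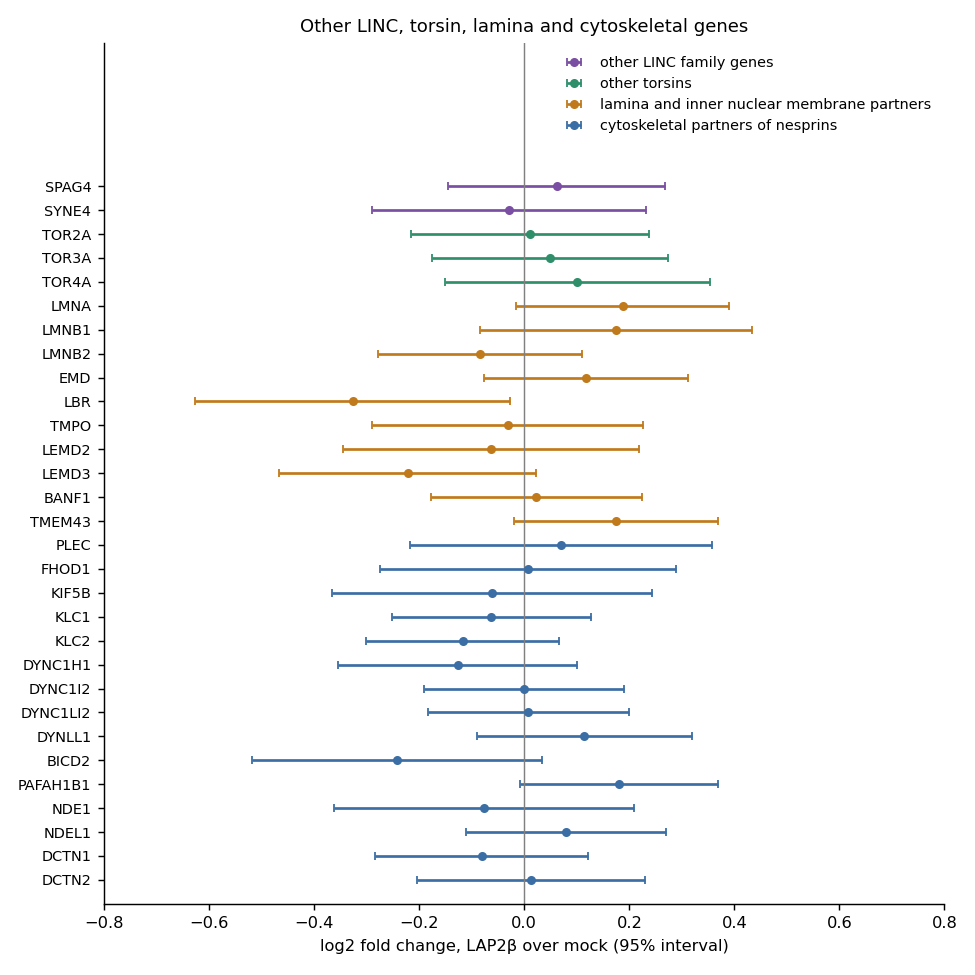
Log2 fold changes of LAP2β over mock (x axis) with 95% intervals from limma for the other tested genes of the LINC, torsin, lamina and cytoskeletal lists (y axis, coloured by list). Among the probes drawn, 1 a gene, the interval of LBR alone leaves out 0, and none of these genes passed the test after adjustment. Of all 9905 tested genes, 1364 had an unadjusted p under 0.05 from limma.

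Between 44.1% and 44.6% of probes were above background on the LAP2β arrays, and 45.7% and 46.6% on mock replicates 1 and 2. Detection on mock replicate 3 was estimated from the other arrays, so its 44.6% was not measured. The labelled cell type was checked with marker genes. All 6 epithelial markers (EPCAM, CDH1, KRT8, KRT18, KRT19 and CLDN7) were above background on all arrays. With the replicate numbers as pairs, 6.43% of all tested genes passed. CDH1 was higher in the LAP2β line (log2 fold change 0.74, limma adjusted p = 0.000308, against 0.0579 unpaired). KRT8 was higher too (0.42, limma adjusted p = 0.00943, against 0.126 unpaired). The other epithelial markers did not pass, and some were lower. CLDN7 had a log2 fold change of -0.25 (limma adjusted p = 0.108 with the pairs), and the EPCAM probes ran from -0.17 to -0.10. The KRT18 probes were at -0.045 and 0.022, and KRT19 was at 0.21 (limma adjusted p = 0.154 with the pairs). Of 7 fibroblast markers 1 was above background on any array, of 5 blood markers with a probe 2 were, and of 3 endothelial markers 0 were. CD68, a lysosomal protein of macrophages that other cells also express, was the only one of these above background on all arrays.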

How the data were processed

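RNA of SNU638 cells, 3 LAP2β and 3 mock samples, was measured on Illumina bead chips. The authors scanned the arrays and processed them in BeadStudio, and they deposited linear intensity values before normalization, quantile normalized intensity values and detection p-values. The methods name a log2 transformation, which the deposited values do not carry. The series matrix equals the normalized table for all its 29285 probes (within 0.1% of each value). Detection columns that matched no sample (2 in all) were not used. Detection on mock replicate 3 was therefore estimated, giving each probe the median p-value of equally ranked probes on the 5 remaining arrays, a rule chosen with the files seen.

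Values before normalization were quantile normalized and log2 transformed with limma 3.58.1 in R 4.3.3 and compared between LAP2β and mock with lmFit and eBayes, two-sided, with Benjamini-Hochberg adjustment over 13323 probes. A gene of the lists was read from its brightest tested probe. The fit was tested on simulated data. Symbols came from the platform annotation, updated by gene ID for 27819 probes, and 1389 probes had several or no symbol. The platform annotation names no genome build, so coordinates are given only for RefSeq windows. The 9 genes, lists and tests were chosen with earlier results of these data known. From each list, genes past the threshold or otherwise the 2 with the smallest p were named, with TMPO and the 3 genes most like SUN1, which had the smallest p of the 9. Same-numbered arrays had correlations of 0.544, 0.228 and 0.368 between their deviations from the group means, against at most 0.158 for other numbers. The rule used takes such numbers as pairs, but the labels do not say what they share. The main fit used no pairs, and the paired fit is given as an alternative. The number of arrays limits the precision. Alternatives were the authors' normalized values, other background corrections, scalings and filters, trend and robust options, the t-test, pairs, a stricter threshold, a mean over probes and each array left out.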

Additional observations from a re-analysis of the deposited data

How the results depend on the processing

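Under all 21 alternatives run, 0 of those of the 9 genes that could be tested passed. With the main filter these were 7 genes, without SYNE1 and SYNE3. In the 20 alternatives that give probe values 0 of the 9 tested probes passed. The count of all probes past the threshold was 145 after neqc, 537 with median scaling, 521 with no normalization between arrays, 821 with the replicate numbers as pairs, 113 at an adjusted p under 0.01, and 1616 by the methods' t-test or 1 after Benjamini-Hochberg adjustment, against 220. Leaving out 1 array gave 100 (without mock replicate 2) to 281, and 123 without LAP2β replicate 2. The pairs changed the call of LBR (adjusted p = 0.0381, against 0.320) and of no other gene of the 9 or of the 4 lists of related genes, and among the markers they changed those of CDH1 and KRT8. PAFAH1B1 passed the methods' t-test before adjustment.

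Some differences near 0 turned sign, and the cause was not tested. With median scaling and with no normalization, the log2 fold change of the brighter TOR1AIP1 probe was -0.15 and -0.16, that of TOR3A -0.11 and -0.12, and that of TOR4A -0.024 and -0.039. With 1 array left out it ran from -0.13 to 0.011 for SYNE2, from -0.078 to 0.047 and from -0.051 to 0.027 for the probes of TOR1AIP1, from -0.11 to 0.062 for the dimmer TOR1AIP2 probe, from -0.13 to 0.095 for SYNE4, from -0.12 to 0.081 for TMPO and from -0.019 to 0.11 for TOR3A. SYNE1, SYNE3 and 3 SYNE2 probes were limited by signal over background.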
